A study of Homo sapiens with 7 samples.

Results

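The genes described here are 9 members of the machinery that shows peptides to cytotoxic T cells, with the checkpoint ligand that answers those cells. They are the class I heavy chains HLA-B, HLA-C and HLA-E, the light chain B2M, the peptide transporter TAP1 and TAP2, the immunoproteasome subunit PSMB9, the transactivator NLRC5, and CD274, which encodes PD-L1. They were taken by name, as 9 of 20033 protein-coding genes in GENCODE release 44. For each gene, the H3K4me1 intervals that touched the gene body or the 20 kb on either side of it were collected. Each interval was reported by a peak caller as enriched over input.

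The cells were SW1990, an established human pancreatic cancer line. They carried either a negative control shRNA (NC) or an shRNA against KMT2D (KMT2D-KD), and no other agent or allele is named in the labels. ChIP-seq was carried out for KMT2D, EBF2 and H3K4me1 in both conditions, with 1 input library whose condition is not given. How far KMT2D fell was not analysed here. There was 1 library per target and condition. No value below therefore has a replicate check, and every difference compares 2 libraries.

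KMT2D, also called MLL2, is a methyltransferase that places H3K4me1, a mark of enhancers and of the flanks of active promoters. Class I molecules are built in the endoplasmic reticulum. Proteasomes, among them the interferon-induced immunoproteasome, cut proteins into peptides, the TAP transporter carries the peptides in, and a heavy chain folds around each of them together with beta-2-microglobulin. Interferon gamma raises most of these genes through IRF1 and NLRC5 among others, and it also raises PD-L1, which restrains T cells. Loss of this machinery is a known route by which tumours escape T cells.

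The stretches of hg38 printed here show where the mark lay near these genes in 1 or both conditions. Each is written on the plus strand. The B2M stretch holds the gap between the lists: its capitals at the left end lie inside an NC interval and those at the right end inside one of the knockdown. In TAP2, capitals mark the NC interval and the whole run is its knockdown counterpart. In NLRC5, capitals run from the KMT2D-KD summit to the NC summit of the strongest interval. In HLA-E, capitals are bases of the interval found in NC alone.
B2M, chr15:44727401-44727641: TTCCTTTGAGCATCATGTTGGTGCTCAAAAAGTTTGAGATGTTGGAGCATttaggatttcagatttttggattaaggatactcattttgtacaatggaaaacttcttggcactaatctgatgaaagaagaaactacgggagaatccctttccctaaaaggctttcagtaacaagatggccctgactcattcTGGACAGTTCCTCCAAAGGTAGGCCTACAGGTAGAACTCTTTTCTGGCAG
TAP2, chr6:32837424-32837701: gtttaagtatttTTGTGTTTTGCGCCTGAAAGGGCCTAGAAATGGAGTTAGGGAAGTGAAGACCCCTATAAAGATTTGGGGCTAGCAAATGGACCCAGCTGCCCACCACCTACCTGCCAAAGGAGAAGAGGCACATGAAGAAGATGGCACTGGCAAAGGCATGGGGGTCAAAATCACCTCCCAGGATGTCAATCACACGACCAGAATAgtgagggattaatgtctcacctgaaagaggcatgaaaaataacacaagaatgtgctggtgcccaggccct
NLRC5, chr16:57072053-57072302: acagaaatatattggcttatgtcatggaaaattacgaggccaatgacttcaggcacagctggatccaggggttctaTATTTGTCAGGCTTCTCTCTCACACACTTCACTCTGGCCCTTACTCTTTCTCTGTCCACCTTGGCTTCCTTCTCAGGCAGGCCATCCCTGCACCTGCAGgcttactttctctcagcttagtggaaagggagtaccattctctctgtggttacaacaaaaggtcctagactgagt
HLA-E, chr6:30490942-30491141: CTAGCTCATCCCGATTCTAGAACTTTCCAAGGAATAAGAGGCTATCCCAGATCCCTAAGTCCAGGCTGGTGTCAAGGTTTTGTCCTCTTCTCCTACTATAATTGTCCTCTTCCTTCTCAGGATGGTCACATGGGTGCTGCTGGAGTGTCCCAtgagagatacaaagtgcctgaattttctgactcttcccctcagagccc

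Across the 9 genes, in 460.9 kb of merged windows, 15 H3K4me1 intervals were found for NC and 18 for KMT2D-KD. The log2 ratio of KMT2D-KD to NC was 0.26, with a 95% counting interval of −0.81 to 1.35. The whole lists held 64843 and 92135 intervals, a log2 ratio of 0.51, which lies inside that range. Covered length was 7137 bases in NC, against 10671 bases after knockdown, or 1.55% and 2.32% of the window bases. The log2 ratio was 0.58, against 0.62 for the whole lists. The covered length rested on NLRC5, and without it the other genes had 1950 and 1986 bases, a log2 ratio of 0.03. With lists of equal length the ratio of intervals turned to −0.58 (−1.90 to 0.67). That setting removes the difference in length between the whole lists by design, so a fall was built into it. Most of the signal belonged to NLRC5 alone, which had 10 of the NC and 12 of the KMT2D-KD intervals.

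**Figure D1:**
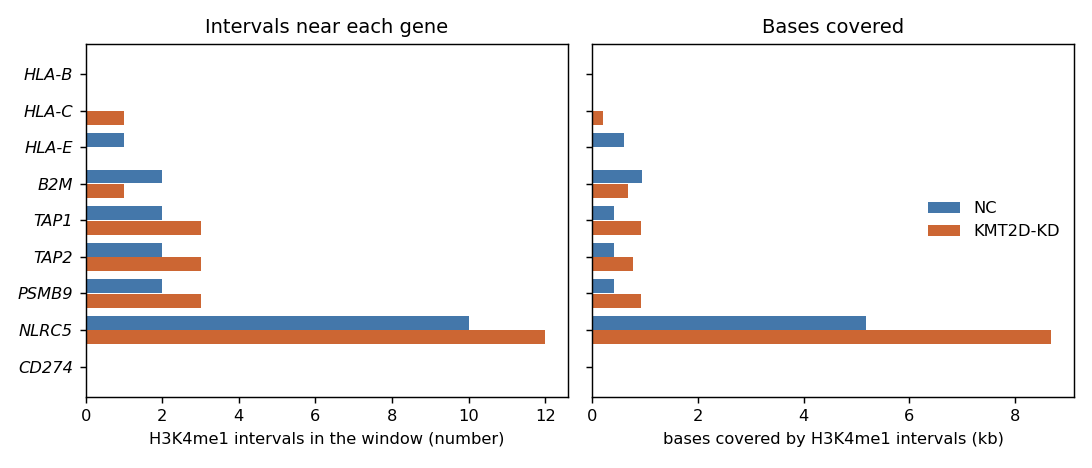
Number of H3K4me1 intervals (left) and kilobases they cover (right) in the gene body and 20 kb either side of each of the 9 genes, with blue bars for NC and orange bars for KMT2D-KD, 1 library each. NLRC5 had 10 and 12 intervals, no other gene had more than 3, and HLA-B and CD274 had none; TAP1, TAP2 and PSMB9 share intervals because their windows overlap.

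Of the 7 genes with an interval in either list, 5 had more in KMT2D-KD than in NC, namely HLA-C, TAP1, TAP2, PSMB9 and NLRC5. Over all genes with an interval this share was 73.1%. With the KMT2D-KD list cut to its strongest intervals at the length of the NC list, none of the 5 had more in KMT2D-KD. HLA-C then had 0 in both, TAP1 and PSMB9 had 2 in NC and 1 after knockdown, TAP2 had 2 and 0, and NLRC5 had 10 and 8. In the gene bodies alone, 0 genes had more in KMT2D-KD and 2 had more in NC. Cutting the KMT2D-KD list can only lower its counts. No share over all genes is given here for either of these settings, so their counts cannot be set against other genes. In the main setting, 5 of 7 was near the share of 73.1%. Only HLA-C had at least 2 times as many in KMT2D-KD, 1 of 7 against a background of 46.9%. HLA-E and B2M had at least 2 times as many in NC, 2 of 7 against 6.88%. These calls rest on 1 to 3 intervals a gene. With a flank of 50 kb, HLA-E had 1 and 1 and B2M had 2 and 2 intervals, and with intervals within 1000 bases merged B2M had 1 and 1. The HLA-C interval was lost with lists of equal length, and also at 8 or more fragments, a limit chosen after seeing the data. HLA-B and CD274, 2 of the 9 genes, had no interval in either list, against 22.7% of all genes.

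Pooled over these windows, the overlap of the lists was near that of the whole lists. The lists overlapped more at NLRC5 than at the other genes, but on few intervals and with overlapping ranges. Of the 15 NC intervals, 6 (40.0%, exact binomial 95% range 16.3% to 67.7%) shared no base with the other list. For KMT2D-KD this held for 10 of 18 (55.6%, 30.8% to 78.5%). The shares over the whole lists were 30.3% and 53.4%, inside both ranges. Those ranges treat the intervals as separate draws, although most of them lie at NLRC5. Of the 6 NC intervals, 5 lay within 1000 bases of a KMT2D-KD interval, and the NC share was 6.67% when that distance counted as found. Outside NLRC5, a single interval in TAP2 was found in both lists, 1 of 5 in NC and 1 of 6 in KMT2D-KD.

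The heavy chains bind the peptide and are the part of the complex that T cells read. HLA-B, at chr6:31353872-31367067 on the minus strand, had no interval in its window in NC or in KMT2D-KD. The nearest to its 5′ end lay upstream, at a distance of 40878 bases in NC and 40290 after knockdown. Distances are from the start of the canonical transcript, since the gene record of HLA-B begins 9888 bases further out. The lists hold only intervals that passed the caller, so an empty window gives no measured level.

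HLA-C, the other classical heavy chain among the 9, at chr6:31268749-31272130 on the minus strand, had no interval in NC and 1 in KMT2D-KD. It was intergenic and lay beyond the 3′ end of the gene. Its fold enrichment over input was 2.92 and its −log10 q 1.48. Only 1.22% of the KMT2D-KD list had a lower −log10 q. The summit held 7 fragments, a number recovered from the deposited fold enrichment and p-value. No interval anywhere in the NC list had fewer than 8.

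HLA-E, a nonclassical heavy chain that presents leader peptides to the NK cell receptor NKG2A, at chr6:30489509-30494194 on the plus strand, showed the reverse. NC had 1 interval at chr6:30490489-30491093, overlapping coding sequence and starting 980 bases into the gene. It was 605 bases wide, with a fold enrichment of 3.70, a −log10 q of 2.71 and 10 fragments. KMT2D-KD had none in the window, and its nearest interval to the NC interval was 30299 bases away. HLA-E was the only one of the 9 genes with an interval within 1000 bases of its canonical 5′ end in either list, against 13.2% of all genes. No interval of KMT2D-KD lay that close to any of the 9 canonical starts.

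Of the nonclassical heavy chain genes outside the 9, HLA-F had 1 interval in NC and 0 in KMT2D-KD, and HLA-G had none. Class I heavy chain genes are near-identical over long stretches, and the treatment of reads that map to several of them is not given in the sources used here. Values inside HLA genes are uncertain for that reason. Around them, the lists were not sparse. On chromosome 6 between 30 and 32 Mb there were 62.5 intervals per Mb in NC and 110.5 in KMT2D-KD. The values were 12.5 and 19.5 between 28 and 30 Mb, and 33 and 53.5 between 32 and 34 Mb.

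B2M encodes the light chain that every class I heavy chain needs to reach the cell surface. The gene lies at chr15:44711358-44718851 on the plus strand, and the mark lay past its 3′ end in both conditions. NC had 2 intervals, at chr15:44726264-44726749 and chr15:44727000-44727450. Their fold enrichments were 4.56 and 4.91, their −log10 q 4.16 and 4.86, and their summits held 12 and 13 fragments. KMT2D-KD had 1 interval at chr15:44727592-44728266, 675 bases wide, with a fold enrichment of 4.38, a −log10 q of 4.02 and 11 fragments.

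All 3 B2M intervals were intergenic, and the nearest protein-coding 5′ end was that of TRIM69. By shared bases each of them was found in 1 condition alone. The edges of the closest pair lay 142 bases apart, and the letters between them are the lower case part of the B2M stretch above. The B2M start was 14747 bases from the nearest NC edge and 16075 bases from the KMT2D-KD edge.

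TAP1 and TAP2 form the transporter that pumps peptides into the endoplasmic reticulum, and PSMB9 (LMP2) is a catalytic subunit of the immunoproteasome. The 3 genes are neighbours in the class II region of chromosome 6, at 32845209 to 32853816 for TAP1, 32821833 to 32838739 for TAP2 and 32844136 to 32859851 for PSMB9. Their windows overlap, and the same intervals count for more than 1 gene. The joined window of 78.0 kb had 2 NC intervals over 408 bases and 4 KMT2D-KD intervals over 1096 bases.

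One place was marked in both. It overlapped coding sequence of TAP2, and its edge was 1108 (NC) or 1038 bases (KMT2D-KD) from the TAP2 start. Fold enrichment was 3.18 in NC and 3.32 in KMT2D-KD. The fragments at the summit were 12 and 10 over a local background of 3.09 and 2.32, so the higher ratio in KMT2D-KD came with fewer fragments. A second NC interval, in a TAP2 intron at chr6:32836786-32836997, had a fold enrichment of 3.68 and no partner in KMT2D-KD.

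The 3 intervals found in KMT2D-KD alone were spread over the locus. One lay in an intron of HLA-DOB at chr6:32819856-32820033, with a fold enrichment of 3.28. One overlapped coding sequence of PSMB8, the neighbouring immunoproteasome subunit, at chr6:32842962-32843287, 760 bases from the PSMB8 start, with a fold enrichment of 3.02. The last was intergenic at chr6:32861974-32862287, 7782 bases from the canonical start of PSMB9 and 8270 bases from that of TAP1, with a fold enrichment of 3.91. All 3 were weak, with 9 or 10 fragments and a −log10 q of at most 3.17. No interval touched the stretch between TAP1 and PSMB9, which are read outward from a shared promoter region.

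**Figure D2:**
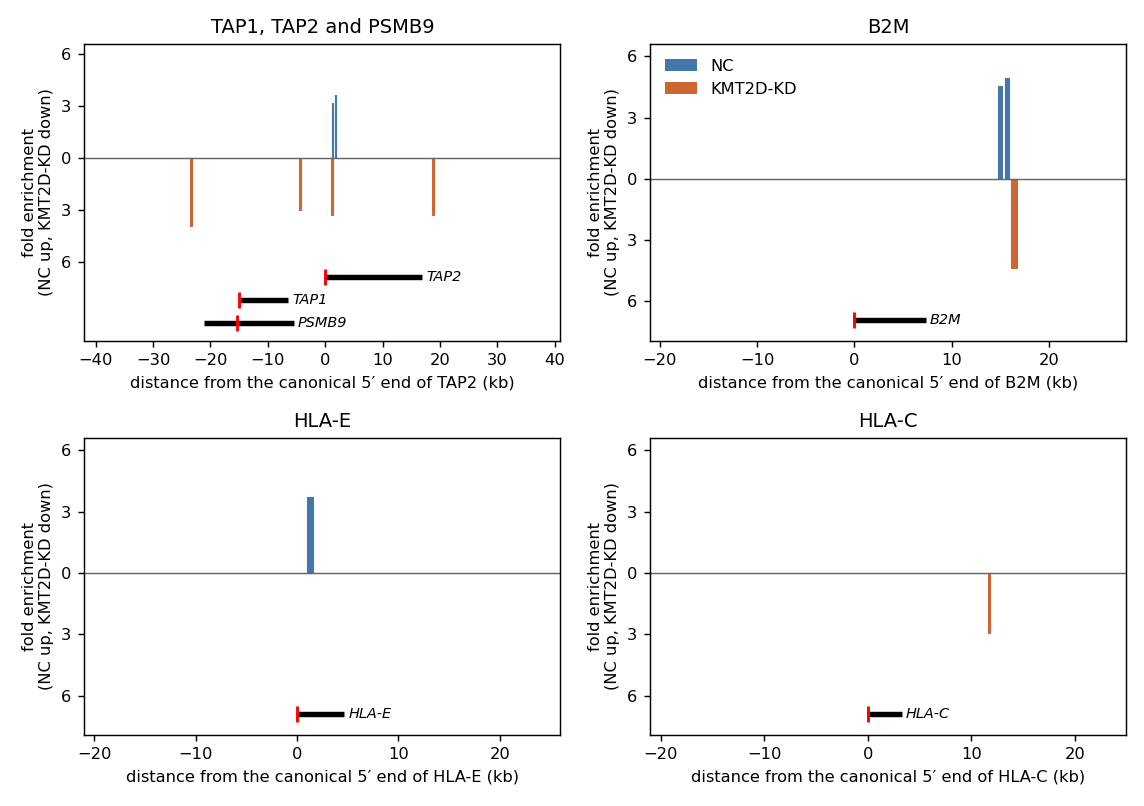
H3K4me1 intervals as bars at their true width (very narrow ones are thickened to stay visible), by distance in kb from the canonical 5′ end of TAP2, B2M, HLA-E and HLA-C along each gene, with fold enrichment over input upward for NC (blue) and downward for KMT2D-KD (orange). Black bars are gene records and red ticks canonical 5′ ends; only the TAP2 interval just inside the gene is present in both lists, and the B2M intervals sit side by side without meeting.

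NLRC5 enters the nucleus and switches on class I genes, B2M and TAP1 together. Its window, 134.0 kb around chr16:56989485-57083531 on the plus strand, held 10 NC and 12 KMT2D-KD intervals. That was more than 92.1% of protein-coding genes had in NC and more than 89.8% had in KMT2D-KD. Per kb of window the shares were 87.1% and 80.7%. They covered 5187 bases in NC, against 8685 after knockdown, for a log2 ratio of 0.74. Of them, 2 NC and 5 KMT2D-KD intervals had no partner in the other list.

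The strongest interval of all 9 genes lay in an NLRC5 intron in both conditions. In NC it spanned chr16:57071157-57072596, with a fold enrichment of 5.96, a −log10 q of 7.11 and 16 fragments. In KMT2D-KD it spanned chr16:57070698-57072657, with a fold enrichment of 9.13, a −log10 q of 15.6 and 24 fragments. Its width was 1440 bases in NC and 1960 after knockdown. The NC interval ranked above 89.5% of its list by −log10 q and the KMT2D-KD interval above 98.5% of its own. The stretch printed above is the sequence around both summits.

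The start of NLRC5 was flanked by the mark on both sides. Upstream, an intergenic interval with its edge 3398 (NC) and 2977 bases (KMT2D-KD) from the start had fold enrichments of 5.27 and 6.83. Another, 2052 and 2102 bases away, had 3.50 and 4.02. The farthest upstream was the only shared one that was lower in KMT2D-KD, at 3.01 in NC and 2.57 in KMT2D-KD. Just inside the gene, NC had 2 intervals of 280 and 401 bases with fold enrichments of 3.46 and 3.34. KMT2D-KD had 1 interval of 1352 bases over both, with a fold enrichment of 6.33 and 17 fragments. The nearest edges, 1038 (NC) and 1070 bases (KMT2D-KD) from the NLRC5 start, were just outside the limit of 1000 bases.

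Further in, an intronic interval at chr16:57060403-57060743 in NC had a fold enrichment of 4.32, and its KMT2D-KD partner had 6.93. Past the 3′ end, an interval in an intron of CPNE2 had 5.01 (NC) and 6.16 (KMT2D-KD). The 2 NC intervals without a partner were both in introns, with fold enrichments of 3.51 and 4.56, and lay 228 and 221 bases from one of the other list. Among the 5 unpartnered KMT2D-KD intervals, the highest overlapped NLRC5 coding sequence at chr16:57075821-57076333, with a fold enrichment of 5.48, and the lowest, in an intron, had 3.04 and 7 fragments.

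**Figure D3:**
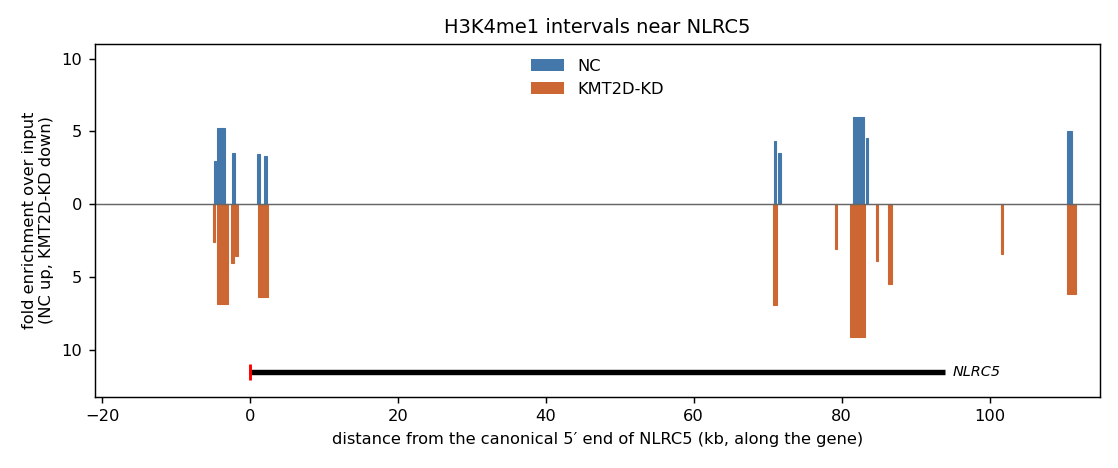
H3K4me1 intervals near NLRC5 as bars at their true width (narrow ones thickened to stay visible), by distance in kb from the canonical 5′ end (red tick), with fold enrichment over input upward for NC (blue) and downward for KMT2D-KD (orange); the black bar is the gene. The intronic interval near the 3′ part of the gene was the highest in both lists, at 5.96 in NC and 9.13 in KMT2D-KD.

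CD274 encodes PD-L1, which engages PD-1 on T cells. At chr9:5450503-5470566 on the plus strand, it had no interval in its window in either list. The nearest lay downstream, 59519 (NC) and 59260 bases (KMT2D-KD) from the CD274 start. Those intervals, at chr9:5510061-5510442 in NC and chr9:5509802-5510117 in KMT2D-KD, were at the start of PDCD1LG2, the gene of the other PD-1 ligand, PD-L2. Their fold enrichments were 3.24 and 2.92, on 9 and 7 fragments.

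Height was compared over the NC intervals that had a partner. Where several KMT2D-KD intervals overlapped an NC interval, the one with the highest −log10 q was taken. That choice was made on the KMT2D-KD side only, so the comparison is not symmetric. In 8 of the 9 near these genes, 7 of them at NLRC5 and 1 in TAP2, the KMT2D-KD interval had the higher fold enrichment, against 69.1% of the 45195 shared NC intervals in all. The 9 are not separate measurements, since 8 lie at 1 gene and 2 share a KMT2D-KD partner. The median ratio of KMT2D-KD to NC fold enrichment was 1.30 for the 9 and 1.16 for the whole list. At a −log10 q of at least 5 stood 3 NC and 6 KMT2D-KD intervals, every one of them in the NLRC5 window. Over the whole lists 25.3% and 32.4% passed that level.

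**Figure D4:**
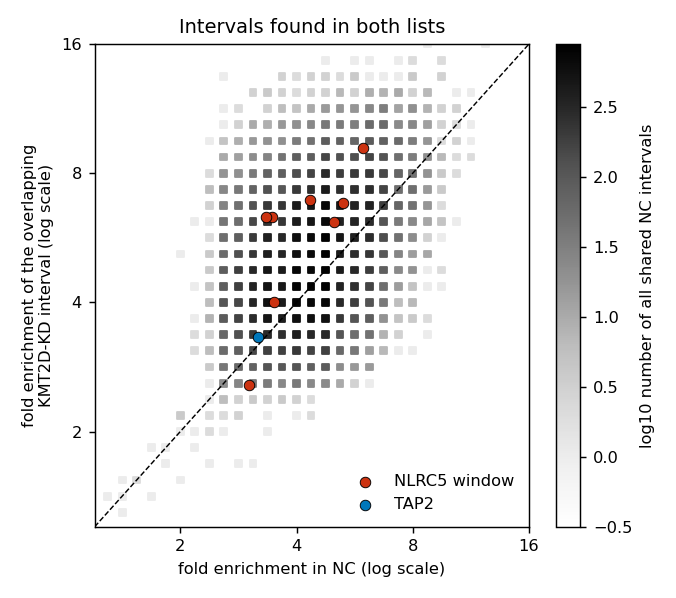
Fold enrichment in NC (x axis, log scale) against that of the overlapping KMT2D-KD interval (y axis, log scale), with grey squares for all shared NC intervals on a binned grid (darker for more intervals), red points for 8 NC intervals near NLRC5 and a blue point for the one in TAP2. The dashed line marks equal values; 8 of the 9 points lie above it.

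The KMT2D and EBF2 lists were short, at 238 to 318 intervals each. None of the 9 genes had an interval of these 4 lists in its window, and 1.58% of all protein-coding genes did, so an absence from 9 genes is near the background. The nearest KMT2D or EBF2 interval was 0.423 Mb from B2M, and for CD274 it was 4.64 Mb away.

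Promoter sequence was examined because the mark lay mostly outside the promoters of these genes. The interferon-stimulated response element is bound by IRF factors, and was searched on both strands as a pair of GAAA with any 2 bases between them. RefSeq (GRCh38.p14) promoters, of 300 bases each, were matched for 7 of the 9 genes in 8 records. HLA-E and NLRC5 had no entry. This pattern was matched in 4 of the 8 records, those of B2M, TAP1, TAP2 and CD274, and in 3.57% of all 35116 promoters. Other spellings of the element were not searched, so a record without a match may still hold one. The TAP1 match lies outside the 300 bases of the PSMB9 record. The stretches below are shown because these letters are what the 4 genes share. They are on the strand of each gene, and capitals mark the element, or the joined element where 2 matches overlap. In TAP1 and CD274 the element is on the opposite strand and reads TTTC.
TAP2, chr6:32838748-32838837, minus strand: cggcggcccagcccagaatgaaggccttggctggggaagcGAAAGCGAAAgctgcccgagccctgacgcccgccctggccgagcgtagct
TAP1, chr6:32853783-32853878, minus strand: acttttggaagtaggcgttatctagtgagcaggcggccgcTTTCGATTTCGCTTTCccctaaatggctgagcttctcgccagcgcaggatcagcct
CD274, chr9:5450294-5450389, plus strand: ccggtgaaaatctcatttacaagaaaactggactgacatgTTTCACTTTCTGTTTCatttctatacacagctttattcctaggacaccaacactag
B2M, chr15:44711333-44711428, plus strand: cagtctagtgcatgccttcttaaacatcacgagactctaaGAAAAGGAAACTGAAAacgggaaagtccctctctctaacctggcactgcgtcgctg

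In B2M the element began 144 bases upstream of the start, in TAP1 134 bases, in CD274 208 bases and in TAP2 58 bases. The distance from the element to the nearest H3K4me1 interval was 14876 (NC) and 16204 bases (KMT2D-KD) for B2M, and 16192 and 8136 bases for TAP1. It was 1157 and 1087 bases for TAP2, and 59712 and 59453 bases for CD274. In none of the 4 did an interval cover the element. A match of letters is a description and not a binding site.

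Within the marked places themselves, the same GAAA pair was searched in the 200 bases around the summit. None of the 15 NC or 18 KMT2D-KD intervals held it, against 3.33% and 2.92% of the whole lists. The gamma-activated site TTCNNNGAA, a motif of interferon gamma response, was in 1 NC and 2 KMT2D-KD intervals, against 6.55% and 5.98%. The AP-1 motif TGANTCA was in 2 NC and 1 KMT2D-KD intervals, all upstream of or within NLRC5, against 8.06% and 7.78%. In the 8 promoters these were in 2 and 0 records, against 7.66% and 7.71%. Numbers this small do not separate the 9 genes from the lists.

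The wider pathway was described with 40 further genes of antigen presentation and interferon signalling. Of these, 38 had an interval, 27 had more in KMT2D-KD, 7 had more in NC and 4 had equal numbers. Over all protein-coding genes, 15478 had an interval, 11312 (73.1%) had more in KMT2D-KD, 2057 had more in NC and 2109 had equal numbers. At least 2 times as many were found in KMT2D-KD for 20 of 38 (52.6%, background 46.9%) and in NC for 4 of 38 (10.5%, background 6.88%). The median per gene was 1 in NC and 2.5 in KMT2D-KD, against 1 and 2 over all protein-coding genes. In the merged windows there were 120 and 167 intervals, a log2 ratio of 0.48 (0.13 to 0.83) beside 0.51 for the whole lists. The direction turned with lists of equal length, at 120 and 109 intervals and a log2 ratio of −0.14 (−0.53 to 0.25). That setting removes the difference in length between the whole lists by design, so a fall was built into it. For intervals with a −log10 q from 5 upward the ratio was 1.06. That level was passed by 25.3% of the NC and 32.4% of the KMT2D-KD list, and no whole-list ratio is given for it.

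The largest differences in number were at JAK1, a kinase of the interferon receptors, with 31 intervals (NC) and 37 (KMT2D-KD). CIITA, the class II counterpart of NLRC5, had 7 and 13. The JAK1 window was 274.5 kb, against a median of 61.6 kb for the 40 genes. Neither gene had at least 2 times as many in KMT2D-KD. In number of intervals, the largest difference toward NC was at NFYC, with 13 and 10. NFYC is a subunit of the NF-Y factor that binds class I and class II promoters. Its covered length went the other way, with 6625 bases in NC and 6860 in KMT2D-KD. Among the receptors and kinases of interferon gamma signalling, IFNGR1 had 2 and 6 intervals and JAK2 had 2 and 0. ERAP1, which trims peptides for class I, had 5 and 3.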

How the data were processed

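H3K4me1, KMT2D and EBF2 were profiled by ChIP-seq in NC and KMT2D-KD SW1990 cells, and the 6 deposited peak lists, each called against 1 input, were used. The input library had no list here. Reads were cleaned and aligned by the authors, and the submitters' processing notes name BWA, MACS2, HOMER and hg38 without versions. How duplicates and reads with several matches were treated is not given in the sources used here. For every interval the authors deposited a fold enrichment over input, which is a ratio. The authors also deposited its −log10 p-value and its −log10 q-value, and the deposited summit offset, in bases, was used to place summits. Everything else was computed from these files with Python 3.11.15, numpy 2.4.6, pandas 2.3.3 and scipy 1.17.1.

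Fragments at each summit were recovered from fold enrichment as (fragments + 1) / (background + 1) and the Poisson p-value. They came out whole, within 0.001 in −log10 p, for 100% of NC and 99.9978% of KMT2D-KD intervals, leaving out 4 and 5 with p-values too small to solve. The lowest number was 8 in NC and 7 in KMT2D-KD, where 1597 intervals (1.73%) had 7, and the median was 12 in both. The solver was tested on simulated data. All intervals lay within the hg38 chromosome lengths. Genes were from GENCODE release 44 and coordinates count from 1.

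An interval was taken as found in the other list when 1 base was shared. Ratios are log2(KMT2D-KD / NC) with 95% counting intervals from the exact binomial (Clopper-Pearson), and these cover no other error. No test was run and no p-value computed between conditions, since intervals of 1 library are not replicates. All 9 genes are named. From the 40 other genes, those with the largest and smallest differences are named; the remaining ones, HLA-F, HLA-G, PSMB8, PDCD1LG2, IFNGR1, JAK2 and ERAP1, were named after their values were seen. The genes, the 40-gene list and the motifs were chosen with earlier results of these data known. Some genes of that list and 1 sequence are not reported here. Alternatives for the window, threshold, list length, merging, overlap and promoter limit were computed.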

Additional observations from a re-analysis of the deposited data

How the results depend on the processing

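With 1 library per condition, depth and calling limit every count here. No paired analysis was possible because each target and condition had 1 library and no result comes from a test. The log2 ratio of intervals near the 9 genes lay between −0.58, with the longer list cut to the length of the shorter, and 1, and that of covered bases between 0.03, without NLRC5, and 1.14. Leaving out NLRC5, and requiring at least 8 fragments, were chosen after seeing the data. The share of NC intervals absent from KMT2D-KD, 40.0% as reported, was 6.67% when an interval of the other list within 1000 bases counted as found, and 0% (of 3 intervals) at a −log10 q of at least 5 or at a fold enrichment of at least 5. For the 40-gene list the ratio of 0.48 became 1.06 with −log10 q from 5 and 1.08 with fold enrichment from 5 upward. It turned to −0.14 (−0.53 to 0.25) with lists of equal length. Equal length removes the whole-list difference by design, and no whole-list ratio is given for the stricter limits. What else moved the ratio was not tested. Counted from the gene record, 1 gene had an interval within 1000 bases of its start in each list, HLA-E in NC and PSMB9 in KMT2D-KD. Within 3000 bases there were 3 genes in NC and 3 in KMT2D-KD, and at any transcript start 2 and 3. A share over all genes, 13.2%, is given only for 1000 bases from the canonical start in either list. At a −log10 q or a fold enrichment of at least 5 there were 0 in NC and 0 in KMT2D-KD, and with lists of equal length 0 in KMT2D-KD. Differences per gene rest on few intervals. With lists of equal length 0 genes had more in KMT2D-KD and 6 had more in NC, and TAP1, TAP2, PSMB9 and NLRC5 changed sign. In the gene bodies alone 0 had more in KMT2D-KD and 2 more in NC, and TAP2 changed sign. For these settings no share over all genes is given, and TAP1, TAP2 and PSMB9 share intervals. TAP1 and PSMB9 each reached 3 intervals in NC and 7 in KMT2D-KD with a flank of 50 kb. No share over all genes is given for that flank either.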
